A study of Mus musculus with 4 samples.

Results

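The regions described are the stretches of the mouse genome where chromatin from embryonic stem cells was enriched for MCAF1 and for H4K20me3, with no enrichment called for REST or Ring1b. They were 288 of 2044 MCAF1 regions (14.1%, 95% interval 12.6% to 15.7%). A library counted as enriched in a window of 1000 bp when its read number had a Poisson upper-tail probability of at most 1e-09 and was at least 5 times background, the larger of the genome mean and the mean of the surrounding 1 Mb. Overlapping windows were joined, and an MCAF1 region was kept when it overlapped an H4K20me3 region and neither a REST nor a Ring1b region. The regions were thus chosen by the measured read numbers of all 4 libraries, and those numbers are given below as a description, with no test.

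MCAF1, also called ATF7IP, is a protein partner of SETDB1, an enzyme that methylates lysine 9 of histone H3 and silences transposable elements and some genes in embryonic stem cells. H4K20me3 is histone H4 trimethylated on lysine 20, a mark that SUV420H enzymes place, largely downstream of H3K9 trimethylation, in constitutive heterochromatin at pericentromeres, telomeres and certain repeats. Ring1b is the ubiquitin ligase subunit of Polycomb repressive complex 1, which represses developmental genes, and REST binds DNA and represses neuronal genes outside neurons.

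The cells were V6.5, a mouse embryonic stem cell line of mixed C57BL/6 and 129 background, with no other treatment or mutation in the labels. They had been passaged off feeder cells 2 times for the MCAF1, H4K20me3 and Ring1b experiments and 1 time for REST. Each antibody had 1 library, sequenced on a separate flow cell, so antibody, run and replicate cannot be told apart and no value has a replicate check. Reads of input chromatin or of a control antibody were not used here. The libraries also differed in depth, with 11026878 distinct one-location reads for MCAF1, 7783420 for H4K20me3, 3131692 for REST and 3087218 for Ring1b.

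Depth set how high each library had to rise to be called. A window of average background was called at 24 MCAF1 reads (5.01-fold) or 20 H4K20me3 reads (5.91-fold), but needed 14 reads in the REST library (10.3-fold) or the Ring1b library (10.4-fold). Windows called among the 4598722 that held a read of any library were 0.0726% for MCAF1, 0.396% for H4K20me3, 0.1% for REST and 0.625% for Ring1b. Of all MCAF1 regions, 48.9% overlapped an H4K20me3 region, 16.7% a REST region and 57.6% a Ring1b region. The absence of a Ring1b or REST call is thus an upper bound near 10-fold, not an absence of reads.

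Measured in the highest MCAF1 window of each of the 288 regions, MCAF1 reads were 5.01 to 19.3 times background with a median of 5.89. H4K20me3 reads in the same windows were 1.77 to 33.9 times background with a median of 6.50. REST reads were 0 to 9.55 times background with a median of 3.67, and Ring1b reads 0 to 9.69 times with a median of 3.90. Most of the set lay close to the MCAF1 threshold: 152 regions were under 6-fold and 15 reached 10-fold. The H4K20me3 fold was the higher of the 2 in 181 of the regions (62.8%, 57.0% to 68.4%), and it reached 10-fold in 49. In another 49 it was under 5-fold, since the H4K20me3 call then lay in a neighbouring window.

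**Figure D1:**
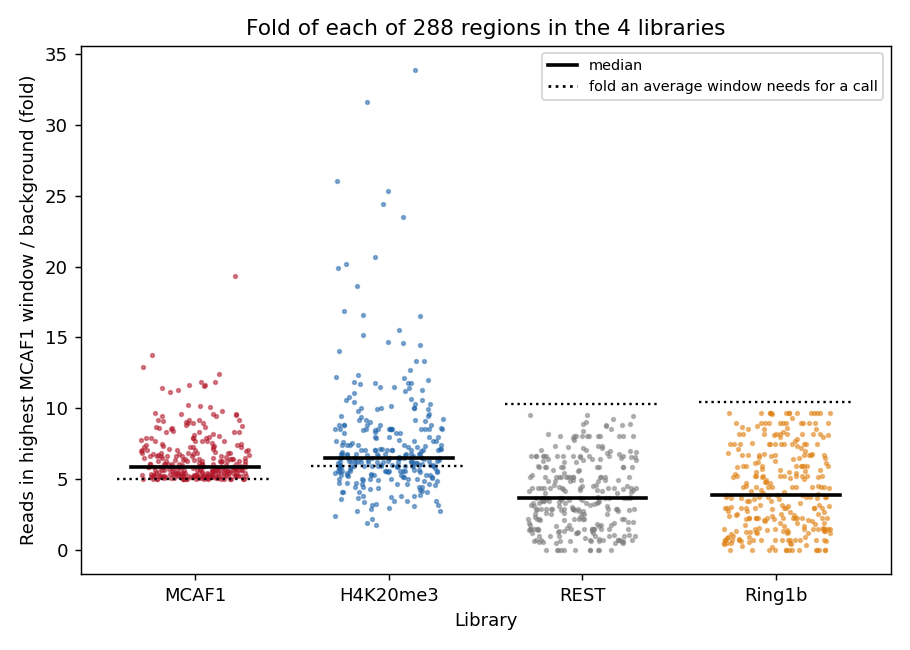
Read number in the highest MCAF1 window of each of the 288 regions, divided by background (fold, y axis), in the MCAF1, H4K20me3, REST and Ring1b libraries (x axis). Each point is 1 region, thick lines are medians and dotted lines are the fold an average window needed for a call; MCAF1 points crowd just above their line, while REST and Ring1b points spread from 0 up to theirs.

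The data go only part of the way with the description "without Ring1b". Ring1b reached 5-fold in 120 of the 288 regions and REST in 94, and the Ring1b fold was above the MCAF1 fold in 86 regions (29.9%, 24.6% to 35.5%). In 69 regions the best Ring1b window held at least 0.8 of the reads it needed for a call. At the other end, 56 regions were under 2-fold for REST and Ring1b alike, 14 had no Ring1b read in the highest MCAF1 window and 11 had no REST read there. The upper 95% limits of both REST and Ring1b lay below the lower limit of MCAF1 in 43 regions. The regions are therefore called MCAF1/H4K20me3 regions here, and the level of REST and Ring1b in them is given as a measured value.

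The boundary of the set was fine-grained. The 3 regions just inside the H4K20me3 threshold each held 20 H4K20me3 reads where 20 were needed, and the 3 MCAF1 regions just outside it held 30 of 31, 29 of 30 and 21 of 22. On the Ring1b side, the 3 regions just inside the set held 30 of 31, 19 of 20 and 17 of 18 reads needed, and the 3 just outside held 14 of 14.

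The highest MCAF1 signal in the set lay at chr14:55191001-55192500 (mm8). Its highest window held 121 MCAF1 reads, 26 H4K20me3 reads, 1 REST read and no Ring1b read, which is 19.3-fold for MCAF1 (16.0 to 23.1) and 6.15-fold for H4K20me3 (4.02 to 9.01). MCAF1 was the dominant signal there. The 1 REST read gave 0.617-fold, with limits of 0.0156 to 3.44 that include background. The next, chr9:36443501-36445000, held 66 MCAF1, 22 H4K20me3, 1 REST and 5 Ring1b reads, or 13.8-fold for MCAF1 and 6.50-fold for H4K20me3. The remaining 8 of the 10 highest MCAF1 regions lay between 11.5 and 12.9-fold.

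A different set of regions carried the highest H4K20me3 signal. At chr7:82647501-82649000 the highest MCAF1 window held 136 H4K20me3 reads (33.9-fold, 28.4 to 40.1) beside 47 MCAF1 reads (8.32-fold), 13 REST reads (9.48-fold) and 10 Ring1b reads (6.48-fold), so all 4 libraries were raised. At chr12:20479501-20481000 the window held 107 H4K20me3 reads (31.6-fold, 25.9 to 38.2) and 31 MCAF1 reads (6.47-fold, 4.39 to 9.18), with no REST read and 1 Ring1b read. Among all windows that overlapped this second region, which can reach beyond its borders, the best REST window held 9 reads of the 14 needed. The best Ring1b window held 2. The next 3 for H4K20me3 were chr6:29698001-29699500 with 137 reads, chr9:123773501-123775000 with 125 and chr9:123780501-123783500 with 121, where REST was 5.33 to 7.35-fold and Ring1b 5.04 to 8.77-fold. Only 2 regions were among the 10 highest for MCAF1 and the 10 highest for H4K20me3, chrX:165338001-165341000 and chr17:13342501-13346000. Across the 288 regions, whose values share libraries and the rule's thresholds, the Spearman correlation of the MCAF1 and H4K20me3 folds was 0.16. Both folds were read in the same windows, whose base composition was not measured.

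Both signals were high together in 5 regions ranked by the smaller of the 2 folds. The first was chrX:165338001-165341000, with 62 MCAF1 reads (12.9-fold) and 108 H4K20me3 reads (20.2-fold). It was followed by chr6:58836001-58837500, with 11.9-fold MCAF1 and 11.8-fold H4K20me3 beside 3 REST and 3 Ring1b reads. At chr11:22871501-22873500 the values were 11.7-fold MCAF1 and 14.1-fold H4K20me3, and at chr17:13342501-13346000 they were 11.5-fold and 23.5-fold. The fifth, chr10:79141501-79143500, was the clearest of the 5 in the excluded libraries: 107 MCAF1 reads (11.3-fold) and 158 H4K20me3 reads (16.6-fold) stood beside 3 REST reads (0.975-fold) and 6 Ring1b reads (2.04-fold).

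Among the 5 regions with the lowest combined REST and Ring1b density, MCAF1 was 5.21 to 6.95-fold and H4K20me3 2.97 to 11.5-fold. At chr4:33222501-33223500 the highest window held 33 MCAF1, 28 H4K20me3, 0 REST and 0 Ring1b reads, and at chr3:51169501-51171000 it held 44, 54, 0 and 0, which is 6.95-fold MCAF1 and 11.5-fold H4K20me3. At chr10:110315001-110316500 the window held 34 MCAF1 and 11 H4K20me3 reads, no REST read and 1 Ring1b read, or 5.85-fold MCAF1 and 2.97-fold H4K20me3. A count of 0 in libraries of this depth left an upper 95% limit of 2.46-fold for Ring1b at the chr14 region above. The regions with the most REST and Ring1b reads included chr11:3095501-3097000 and chr11:3033001-3034000, near the first read of the chromosome. The 1-Mb MCAF1 mean around them was 5.30 and 5.73 times the genome mean, the 2 values above 5 in the set, and the first of them was 1 read short of a Ring1b call.

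MCAF1 regions were narrow, and a minority lay in wide H4K20me3 regions. MCAF1 regions had a median width of 1500 bp (1000 to 4500 bp), and 5 were wider than 2000 bp. The widest was chr4:145416501-145421000, with 9.59-fold MCAF1 and 6.79-fold H4K20me3 in the same window. The overlapping H4K20me3 regions also had a median of 1500 bp but extended to 14500 bp, and 194 of the 288 MCAF1 regions lay wholly inside one. The H4K20me3 region was wider than the MCAF1 region in 146 of the 288 (50.7%, 44.8% to 56.6%) and in 240 of the 479 MCAF1 regions that overlapped H4K20me3 and Ring1b but not REST (50.1%, 45.5% to 54.7%), and the intervals overlap. The highest H4K20me3 window was within 500 bp of the highest MCAF1 window in 244 regions (84.7%, 80.04% to 88.7%), and it was the same window in 145. H4K20me3 regions wider than 3 kb were found at 33 of the 288 regions (11.5%, 8.02% to 15.7%), against 17 of the 479 with Ring1b (3.55%, 2.08% to 5.62%). An H4K20me3 region that overlaps several MCAF1 regions is counted at each, and the intervals treat these as independent. The class with Ring1b differs by rule from the set in having a Ring1b call, and the class with MCAF1 alone in lacking an H4K20me3 call. Relative to the genome mean, median combined REST and Ring1b read densities were 4.44 (the set), 4.07 (MCAF1 alone) and 10.7 (the class with Ring1b). The rule bars a REST or Ring1b call in the set and in MCAF1 alone, and requires a Ring1b call in the class with Ring1b. The higher value of that class therefore follows from the selection, and these medians cannot show which class the set resembles.

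Read density around the centre of the highest MCAF1 window, divided by the genome mean of each library, gave the shape without region borders. MCAF1 was thus centred on its own maximum and H4K20me3 was not, so part of the contrast in their widths follows from the centring. In the regions with MCAF1 alone, centred alike, MCAF1 fell from 7.59 within 500 bp to 2.02 at 500 to 1000 bp. Within 500 bp of the centre, H4K20me3 averaged 10.1 times the genome mean (9.91 to 10.31) and MCAF1 8.26 times (8.11 to 8.41). At 500 to 1000 bp MCAF1 had dropped to 2.55 while H4K20me3 was still at 5.69, and at 2 to 5 kb they were at 2.09 and 3.26. REST and Ring1b peaked weakly, at 4.57 and 5.15, and lay between 1.54 and 2.35 everywhere beyond 500 bp. A single member, chr11:3095501-3097000, has a pile-up of all 4 libraries beside it. Without the 2 regions on the raised chr11 background, a choice made after the values were seen, H4K20me3 was 9.89 at the centre and 2.88 at 2 to 5 kb, and MCAF1 was 8.07 and 1.86.

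Single regions differed from the class with Ring1b and H4K20me3 at some distances and not at others. At 500 to 1000 bp from the centre, H4K20me3 density exceeded MCAF1 density in 227 of the 288 regions (78.8%, 73.6% to 83.4%) and in 367 of 479 (76.6%, 72.6% to 80.3%) in the class with Ring1b, and the intervals overlap. At 1 to 2 kb from the centre, the median region had 2.81 times the genome mean of H4K20me3 and 1.77 times that of MCAF1. In the class with Ring1b and H4K20me3 the medians over all 479 regions were 1.62 for H4K20me3 and 1.67 for MCAF1. H4K20me3 density exceeded MCAF1 density at 1 to 2 kb in 192 of the 288 regions (66.7%, 60.9% to 72.1%), against 249 of 479 (52.0%, 47.4% to 56.5%) in the class with Ring1b. At 5 to 10 kb it did so in 150 of the 288 (52.1%, 46.1% to 58.0%) and 153 of the 479 (31.9%, 27.8% to 36.3%). These intervals treat regions as independent and cover counting error only.

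**Figure D2:**
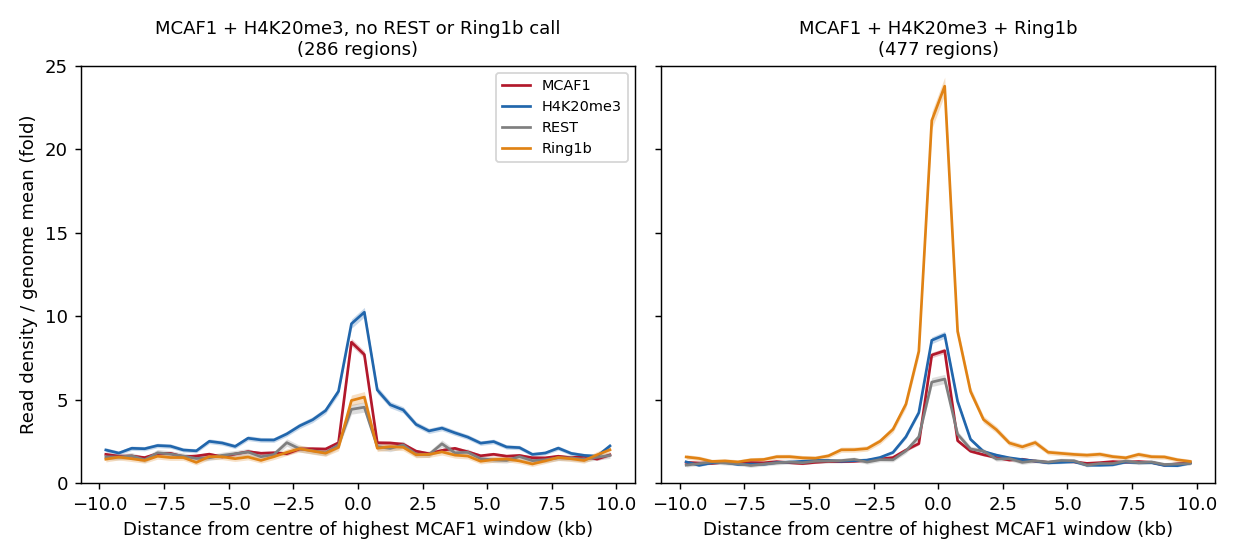
Mean read density divided by the genome mean of each library (fold, y axis) against distance from the centre of the highest MCAF1 window (kb, x axis) in bins of 500 bp, for 286 MCAF1/H4K20me3 regions without a REST or Ring1b call (left) and 477 MCAF1 regions with H4K20me3 and Ring1b (right); bands are 95% Poisson intervals and regions with a 1-Mb MCAF1 mean above 5 are left out. On the left H4K20me3 falls off slowly on both sides of a narrow MCAF1 peak, and on the right Ring1b, at 22.7 within 500 bp of the centre, is the highest of the 4.

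The regions were also described by their level of REST and Ring1b. They were split by combined REST and Ring1b read density, which the rule had used, with limits chosen after the values were seen, so the groups are a description and support no test: 62 were under 2 times the genome mean, 69 were from 2 to 4, 77 from 4 to 6 and 80 at 6 or more. In the 62 regions under 2, H4K20me3 averaged 8.98 times the genome mean within 500 bp of the centre, 7.04 at 500 to 1000 bp, 5.35 at 1 to 2 kb and 2.71 at 2 to 5 kb. MCAF1 in the same regions averaged 8.84, 2.01, 1.89 and 1.78. H4K20me3 thus formed a shoulder of a few kb around the MCAF1 peak. That peak lay within 500 bp of the centre by construction, because each region was centred on its highest MCAF1 window. REST and Ring1b, whose low level follows from the split, were at 1.28 and 1.18 in the centre.

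In the 80 regions at 6 or more, the centre averaged 10.4 for H4K20me3, 7.63 for MCAF1, 7.38 for REST and 8.94 for Ring1b. H4K20me3 averaged 3.16 at 1 to 2 kb and 3.06 at 2 to 5 kb, and MCAF1 2.45 and 2.24. Without the 2 chr11 regions, both in this group, H4K20me3 averaged 2.20 and 1.67 at these distances and MCAF1 1.89 and 1.41. The mean H4K20me3 at 2 to 5 kb was thus above the 2.71 of the regions under 2 with those 2 regions and below it without them. The median region of this group had 1.33 times the genome mean of H4K20me3 at 1 to 2 kb, against 4.06 in the median region under 2. H4K20me3 exceeded MCAF1 at 500 to 1000 bp in 61 of the 62 regions under 2 (98.4%) and in 45 of the 80 regions at 6 or more (56.2%). At 1 to 2 kb it did so in 51 of the 62 (82.3%) and 35 of the 80 (43.8%). An H4K20me3 region wider than 3 kb was present at 11 of the 62 and 1 of the 80. Across the 288 regions the REST and Ring1b folds had a Spearman correlation of 0.67, a description of 2 shallow libraries over the same windows. Whether a background common to the libraries has a part in the regions with high REST and Ring1b was not tested, and no input library was used here to measure one.

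**Figure D3:**
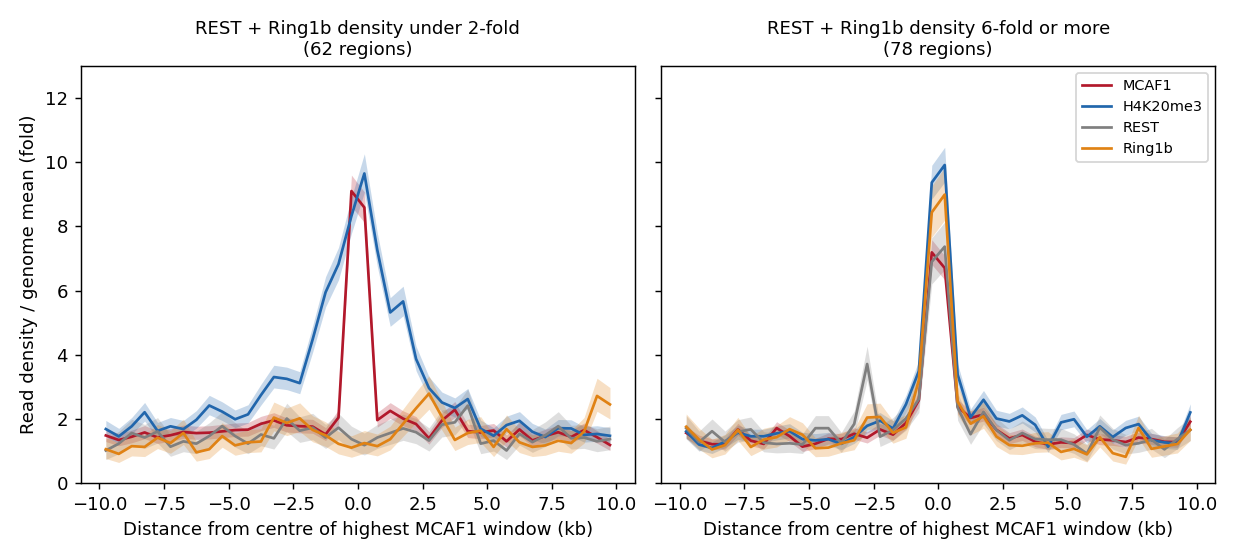
Mean read density divided by the genome mean of each library (fold, y axis) against distance from the centre of the highest MCAF1 window (kb, x axis) in bins of 500 bp, for the 62 regions with combined REST and Ring1b density under 2 (left) and 78 of the 80 with 6 or more (right, without 2 regions with a 1-Mb MCAF1 mean above 5); bands are 95% Poisson intervals. On the left a broad H4K20me3 shoulder surrounds a narrow MCAF1 peak with REST and Ring1b flat, and on the right the 4 libraries share 1 narrow peak.

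A stricter reading of the rule used the pooled REST and Ring1b reads, scaled to depth, as a further background for MCAF1 and H4K20me3. It gave 52 regions of 159 MCAF1 regions, and they overlapped 49 of the 288. Low REST and Ring1b in the regions that stayed, and higher values in those lost, follow from this selection and are given as a description. The further background could also raise the reads needed for an MCAF1 or H4K20me3 call. The MCAF1 folds, H4K20me3 folds and H4K20me3 widths below therefore took part in the selection, and support no test. Those 49 had a median MCAF1 fold of 6.95 and a median H4K20me3 fold of 6.54, with REST and Ring1b medians of 0.735 and 0.746. The 239 that were lost had medians of 5.84 for MCAF1, 6.50 for H4K20me3, 4.34 for REST and 5.04 for Ring1b. The named regions chr14:55191001-55192500, chr6:58836001-58837500, chr10:79141501-79143500 and chr12:20479501-20481000 were among those that stayed. H4K20me3 regions wider than 3 kb were found at 14 of the 49 (28.6%) and 19 of the 239 (7.95%).

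Reads with 2 reported locations were not counted by the rule, and they gave a measurement in sequence that occurs more than once. They come from the same 4 libraries that chose the regions, so they are no independent check. Such a read is listed at both of its locations, so its source may be either. Two-location MCAF1 reads had 7.09 times their mean density in the 288 regions (6.80 to 7.39), and two-location H4K20me3 reads 10.9 times (10.53 to 11.38). Two-location REST and Ring1b reads were at 3.13 times (2.88 to 3.39) and 3.22 times (2.94 to 3.51). H4K20me3 and MCAF1 were thus also the higher pair in these reads, in the same order as in the one-location reads. The 2 pairs also differed in alignment seed, 36 bases for MCAF1 and H4K20me3 and 26 for REST and Ring1b. Antibody and alignment setting cannot be told apart in this contrast.

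For MCAF1 and H4K20me3, the same measurement was much lower in the other classes of MCAF1 region without a REST call. In the 479 regions with H4K20me3 and Ring1b the densities were 0.896 for MCAF1, 1.54 for H4K20me3, 0.834 for REST and 2.47 for Ring1b. In the 522 regions with MCAF1 alone they were 2.27, 1.08, 0.983 and 1.37 in that order of libraries, and in the 414 with MCAF1 and Ring1b they were 0.668, 0.695, 0.698 and 1.998. Over all 2044 MCAF1 regions, which include those called in all 4 libraries, they were 6.63, 6.90, 5.87 and 8.66. The 341 MCAF1 regions with a REST call, 197 of them called in all 4 libraries, were not measured on their own. They held most of the two-location MCAF1 and H4K20me3 reads of all MCAF1 regions. Their density of both was therefore above that of the set. The density in the set was above that of all MCAF1 regions for H4K20me3 and MCAF1 and below it for REST and Ring1b.

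**Figure D4:**
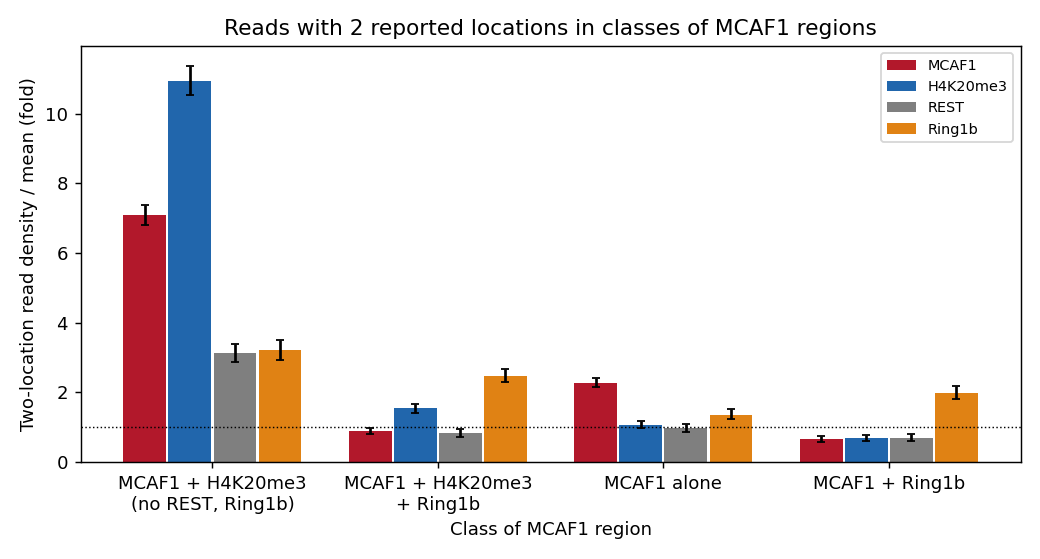
Density of reads with 2 reported locations divided by their mean (fold, y axis) in 4 classes of MCAF1 region (x axis), with 1 bar per library; error bars are 95% Poisson intervals and the dotted line marks the mean. Among these 4 classes, the 288 MCAF1/H4K20me3 regions have the highest bars for MCAF1, at 7.09, and H4K20me3, at 10.9. MCAF1 regions with a REST call are not drawn.

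These reads were unevenly spread. At least 1 two-location MCAF1 read fell in 116 of the 288 regions (40.3%, 34.6% to 46.2%), the median region had none, and the 10 richest regions held 50.9% of them. Without the 10 richest regions of each library, the density was 3.65 for MCAF1, 4.38 for H4K20me3, 1.66 for REST and 1.77 for Ring1b, against 0.233, 0.389, 0.407 and 1.33 in the class with Ring1b and H4K20me3. All MCAF1 regions without their 10 richest had 4.25 for MCAF1, 4.51 for H4K20me3, 3.22 for REST and 4.65 for Ring1b, so the MCAF1 and H4K20me3 densities of the set were then below those of all MCAF1 regions. These trims are unlike, as 10 regions are a larger share of 288 than of 479 or 2044. In all MCAF1 regions the 10 richest held 36.9% of the two-location MCAF1 reads. The richest was chr17:3038001-3039500, with 164 two-location MCAF1 reads per kb and one-location folds of 10.1 for MCAF1 and 10.1 for H4K20me3. It was followed by chrX:108487001-108488500 with 124 per kb and chr2:27321501-27322500 with 82 per kb.

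The same calling rule was applied to two-location reads alone, where it called 0.291% of windows with such a read for MCAF1, 0.334% for H4K20me3, 0.0587% for REST and 0.119% for Ring1b. With these calls, 38 of the 288 regions overlapped an MCAF1 two-location region (13.2%, 9.51% to 17.7%), beside 6.46% of all MCAF1 regions. An H4K20me3 two-location region overlapped 36 (12.5%, 8.91% to 16.9%), beside 5.38% of all MCAF1 regions. REST and Ring1b two-location regions overlapped 14 each (4.86%, 2.68% to 8.02%), beside 3.96% and 4.75%, which is near the background. Of the 288, 47 overlapped an MCAF1 or H4K20me3 two-location region (16.3%, 12.2% to 21.1%), against 7 of 479 with H4K20me3 and Ring1b (1.46%, 0.590% to 2.99%), 22 of 522 with MCAF1 alone (4.21%, 2.66% to 6.31%) and 148 of all 2044 MCAF1 regions (7.24%, 6.15% to 8.45%). Of the 62 regions low in REST and Ring1b, 13 overlapped an MCAF1 two-location region and none a REST or Ring1b one, which allows a share of up to 5.78%. What kind of repeated sequence these regions hold was not analysed here, as no mm8 genome or annotation was used.

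Signals on the 2 strands and repeated positions described the reads behind the peaks. In the 288 regions, plus-strand and minus-strand reads were most often 106 bp apart for MCAF1, 102 bp for H4K20me3, 111 bp for REST and 100 bp for Ring1b. Reads were not piled at 1 spot in most regions: the densest 50 bp held a median of 20.7% of the MCAF1 reads of the highest window, with a range of 10.2% to 57.7%. In the MCAF1 library, 16.0% of the reads in the regions (15.4% to 16.6%) were at a position already taken. In the H4K20me3 library the share was 7.92% (7.47% to 8.39%). The shares for MCAF1 and H4K20me3 were 14.4% and 3.83% in the class with Ring1b and H4K20me3, and 12.2% and 2.06% in the whole libraries. Over all 2044 MCAF1 regions they were higher than in the set, at 28.9% and 15.8%. The median region had an H4K20me3 share of 3.33% in the set and 2.88% in the class with Ring1b and H4K20me3. One-location reads alone at 1 per position and strand entered the folds above.

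The regions were spread over all 21 chromosomes, with 12.5 per 100 Mb of covered sequence (11.1 to 14.1). The density was highest among autosomes on chromosome 17, with 19 regions or 22.9 per 100 Mb (13.8 to 35.7). The other autosomes had 7.48 to 18.4 per 100 Mb, and with 21 chromosomes compared no test was made of the highest. On the X chromosome 11 of 25 MCAF1 regions belonged to the set (44.0%, 24.4% to 65.1%), beside 14.1% genome-wide, but their number per 100 Mb was 9.64 (4.81 to 17.3). The X chromosome had 21.9 MCAF1 regions of any class per 100 Mb, against 88.9 genome-wide, and its MCAF1 read density was 0.370 of the mean. Chromosome Y had 4 of 12 MCAF1 regions in the set.

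**Figure D5:**
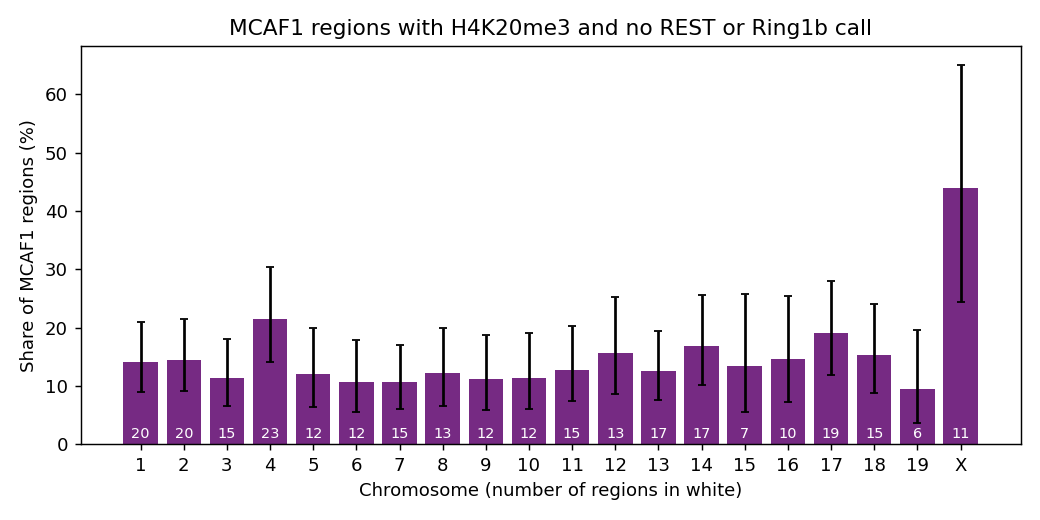
Share of MCAF1 regions that had H4K20me3 and no REST or Ring1b call (%, y axis) by chromosome (x axis; Y, with 12 MCAF1 regions, is not drawn), with exact 95% binomial intervals and the number of regions in white. Autosomes lie between 9.52% and 21.5%, and the X chromosome is at 44.0% with a wide interval.

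Like MCAF1 regions of any class, the regions were more frequent near chromosome ends than covered windows were. Within 2 Mb of the last read of a chromosome lay 17 of the 288 regions (5.90%, 3.48% to 9.28%), beside 1.62% of covered windows and 3.33% of all MCAF1 regions. The 17 include the 5 regions of 1 cluster on the X chromosome, which the interval counts as independent. Within 2 Mb of the first read, next to the centromere in the acrocentric mouse chromosomes, lay 11 (3.82%, 1.92% to 6.73%), beside 1.45% of covered windows and 5.28% of all MCAF1 regions. Most regions stood alone: 231 had no other within 100 kb, and the remaining 57 formed 25 clusters, of which 20 had 2 regions, 4 had 3 and 1 had 5.

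The cluster of 5 spanned 29 kb at chrX:165318501-165347500, about 0.2 Mb from the last read of the chromosome. Its regions had MCAF1 folds of 9.18, 12.9, 6.05, 5.42 and 5.63 and H4K20me3 folds of 12.4, 20.2, 10.6, 6.30 and 9.08 along the chromosome. H4K20me3 was the higher of the 2 in all 5. REST ranged from 1.47 to 8.08-fold and Ring1b from 0.746 to 3.73-fold, and a Ring1b region directly adjoined the second of the 5. The second region lay in an H4K20me3 region of 14500 bp, the widest at any of the 288, in which H4K20me3 reached 42.7-fold. The class with H4K20me3 and Ring1b had the same largest width and the same highest H4K20me3 fold, so these values are not particular to the set. Two-location MCAF1 reads numbered 0, 110, 39, 27 and 17 in the 5 regions, and 3 of the 5 overlapped an MCAF1 two-location region.

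The median distance to the nearest Ring1b region was 38.5 kb in the set and 44 kb in the 522 regions with MCAF1 alone. A Ring1b region lay within 10 kb of 67 of the 288 regions (23.3%, 18.5% to 28.6%), against 106 of the 522 with MCAF1 alone (20.3%, 16.9% to 24.0%) and 66.7% of all MCAF1 regions, most of which overlap one. The intervals of the first 2 shares overlap. The nearest REST region was at a median of 239 kb and within 10 kb of 32. Regions under 2 in combined REST and Ring1b density had a Ring1b region within 10 kb in 14 of 62 and those at 6 or more in 21 of 80.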

How the data were processed

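The authors aligned reads to mm8 with Bowtie, per the submitters' processing notes and the file headers, its version not given in the sources used here. The headers set a maximum of 2 locations per read, beyond which a read was dropped, and a seed of 36 bases for MCAF1 and H4K20me3 or 26 for Ring1b and REST. The deposited values are signed read positions, 1 per alignment and with the strand as sign; they are not normalised. Positions were read as counted from 0 and are printed from 1; which end of a minus-strand read is listed is not given.

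Reads with 1 location were kept at 1 per position and strand, moved 75 bp in the 3′ direction and counted in windows of 1000 bp every 500 bp; mitochondrial reads were left out. The calling rule is in the report, and overlap meant at least 1 bp. A fold is relative to the larger of genome and 1-Mb mean, and a density to the genome mean; the means were taken over windows with a read of any library. The two-location means were taken over windows with such a read. Intervals are 95%, exact Clopper-Pearson for shares and exact Poisson for reads, and include counting error alone, because PCR copies are not separate molecules.

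The rule, members and lists were chosen with earlier results of these data known. The named regions were those ranking highest in MCAF1 fold (10), H4K20me3 fold (10) and the smaller of both (5), the 3 widest, the 3 on each side of the H4K20me3 and Ring1b thresholds, the 5 lowest and 5 highest in combined REST and Ring1b density, and the 5 richest in two-location MCAF1 reads; examples are given. No gene is named and no motif was searched, because no annotation or genome of the mm8 build was used here. The calling step was tested on simulated data with a Poisson background. The planted MCAF1 and H4K20me3 signals were above the medians of the set, with Ring1b either at background or far above its threshold. The simulation therefore cannot show how the rule performs near its thresholds, where most of the regions lie. Software was Python 3.11.15 with pandas 2.3.3, matplotlib 3.10.9, scipy 1.17.1 and numpy 2.4.6.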

Additional observations from a re-analysis of the deposited data

How the results depend on the processing

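The number of MCAF1/H4K20me3 regions depended on the calling rule. It stayed within 1.5 times of 288 under 8 of 16 alternatives. It was 30 at a minimum fold of 8, 501 at a minimum fold of 3, 1552 with the genome mean alone as background, 160 with a 100-kb local mean, 60 with windows of 2000 bp, 31 with every library thinned to the smallest, 52 with pooled REST and Ring1b reads as further background and 183 with REST and Ring1b called at 1e-06. The share of MCAF1 regions was 10.2% with all libraries called at 1e-06, 10.2% at a minimum fold of 8, 12.1% with a 100-kb mean, 10.8% with windows of 500 bp, 8.66% after thinning, 32.7% with the pooled background and 8.95% with REST and Ring1b called at 1e-06. The thinned and pooled-background calls started from 358 and 159 MCAF1 regions, and the call at a minimum fold of 8 from 293. The causes of the changes in share were not tested. Of the 288 regions, 283 were overlapped at a minimum fold of 3, 269 with shifts of 50 or 100 bp, 231 with repeated positions kept, 198 with two-location reads added and 24 after thinning. Counts near 288 did not mean the same regions: 183 of the 288 were overlapped with all libraries called at 1e-06, 170 at 1e-12 and 162 with windows of 500 bp. The added two-location reads, the 1e-06 call of REST and Ring1b alone and the means without 2 chr11 regions were chosen after seeing the data. Of 80 values for the medians of fold and width, 48 stayed within the main median's 95% interval; the Ring1b median ranged from 0.746 with the pooled background to 5.31 at 1e-12. No paired analysis was possible because each antibody had 1 library. Depth limits the REST and Ring1b values: 14 reads were needed for a call, and 1 read in an average window is a fold of 0.735 for REST and 0.746 for Ring1b.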
